A study of Brassica rapa and Brassica rapa x Brassica nigra and Brassica nigra with 18 samples.

Results

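The genes described here rose at least 32-fold between meiosis and mitosis in anthers of a Brassica allohaploid, while their change in the parent that carries the same genome lay between 0.5-fold and 8-fold. There were 102 such genes among 79644 gene identifiers of the series, 30 of 36454 labelled A genome and 72 of 35686 labelled B genome. They were chosen by measured values, namely the stage ratios in AB and in the parent, so the sizes of these ratios are given as a description, with no test. A member also had a parental mean of at least 1 CPM at 1 stage or both, and the own parent held at least 90% of its CPM in both parents. CPM here is the usual scaled count, but relative to the counts on genes of the same genome only, as a mean of 3 libraries, and 0.5 was added to both means before a ratio was taken.

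The study sequenced RNA, labelled total RNA, from anthers in 18 libraries, 3 for each of 6 groups. The groups were the allohaploid AB at mitosis and at meiosis, Brassica rapa (AA) at mitosis and at meiosis, and Brassica nigra (BB) at mitosis and at meiosis. AB came from a cross with B. rapa as mother and B. nigra as father, was labelled haploid and was named B. juncea, the species that combines both genomes. Library totals lay between 9782001 and 12161111 counts. The meiosis label stands for sporogenesis and the mitosis label for gametogenesis, and the collected buds are described as meiotic or as spanning tetrads to maturity, without saying which library holds which. The tissue label names young anthers with pollen, and the field on growth gives the cross for the parents too. Whether libraries of 1 group stem from different plants is not in the labels. The p-values therefore rest on the spread among libraries alone, and that spread may be technical. The AB libraries hold both genomes, and A genes were compared with AA only and B genes with BB only.

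As background, meiosis in the anther turns diploid spore mother cells into haploid microspores. Each microspore then divides by mitosis into pollen with a vegetative and a generative cell, while the surrounding tapetum, which feeds the microspores, breaks down. An anther sample at the later stage thus holds other cells than one at meiosis, and in such bulk samples fewer cells of a type and less RNA per cell cannot be told apart. An allohaploid has a single set from each species, so its chromosomes lack a homologous partner when meiosis begins. The files do not pair identifiers with gene names, and 0 of the 79644 identifiers matched the RefSeq table of B. rapa, which lists 51589 genes. Members therefore have no function, sequence or position here, and the tissue label could not be checked against marker genes.

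The working description of these genes, a mitosis rise seen mainly in the allohaploid, concerns the size of the rise. The limits allow a parental rise of up to 8-fold, and the parental mean was at least 2-fold higher at mitosis in 86 of the 102 members and lower in 2. The median stage ratio was 44.5-fold in AB and 4.19-fold in AA for the 30 A genes, and 51.7-fold in AB and 3.73-fold in BB for the 72 B genes. In AB all members were called higher at mitosis, with a call meaning a Benjamini-Hochberg adjusted p under 0.05 in edgeR's quasi-likelihood test, 30 of 30 A genes and 72 of 72 B genes. Among all tested genes 41.0% of A and 39.2% of B genes had this call. In the parent 29 of 30 A members were called higher at mitosis, against 40.8% of all A genes, and 69 of 72 B members, against 39.2% of all B genes. The edgeR fit scales libraries otherwise and does not add 0.5 CPM. By this fit the median parental change was 2.63 in A and 2.40 in B members on the log2 scale. It put the parental rise of 11 A and 14 B members at 8-fold or more, although the limit of the choice was 8-fold. The choice used both contrasts, so these values describe the genes chosen and no test is read from them.

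**Figure D1:**
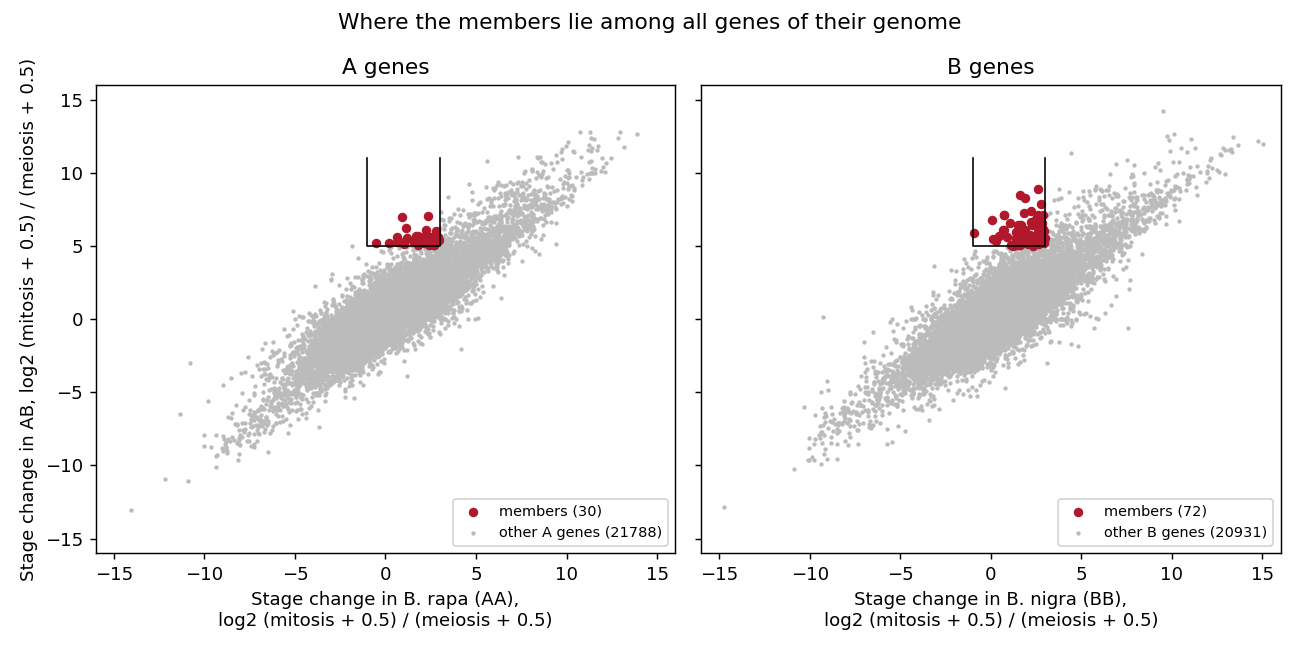
Change between stages in the parent (x axis) and in AB (y axis) for each gene with at least 1 CPM in a group and at least 90% of parental CPM in its own parent, as log2 ratios of mitosis to meiosis with 0.5 added to each mean. Red points are the 30 A and 72 B members inside the limits drawn in black, grey points the other genes, and the members lie along the upper left edge of the diagonal cloud, crowded toward the 32-fold and 8-fold limits.

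Many members lay close to a limit. The smallest AB ratio among the A members was 33.6 and the largest among genes that missed only this limit was 31.6, and for B genes these ratios were 32.2 and 31.8. Between 32-fold and 40-fold in AB there were 12 A and 20 B members, while 22 A and 29 B genes with between 25-fold and 32-fold fell just outside. At the upper parental limit the largest member ratio was 7.68 in A genes and 7.90 in B genes, and the next genes outside had 8.11 and 8.02. Of all genes that rose at least 32-fold in AB with the same parental level and purity, 768 A genes and 664 B genes, the members made up 3.91% and 10.8%. The other 738 A and 592 B genes exceeded 8-fold in the parent, and 0 lay under 0.5-fold in either genome.

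At meiosis the median member stood at 0.786 CPM in AB and 15.98 CPM in AA for A genes, and at 0.817 CPM in AB and 12.4 CPM in BB for B genes. At mitosis the medians were 52.3 CPM in AB and 57.2 CPM in AA for A genes, and 103 CPM in AB and 49.4 CPM in BB for B genes. The AB meiosis mean was the lowest of the 4 group means in 28 of 30 A members and 63 of 72 B members, against 29.1% of all A genes and 28.2% of all B genes with at least 1 CPM in a group and the same purity. The AB mitosis mean was the highest of the 4 in 23 A and 58 B members, against 23.0% and 22.7% of those genes. The 32-fold limit places AB at meiosis below AB at mitosis in every member, so nothing is read from these counts.

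**Figure D2:**
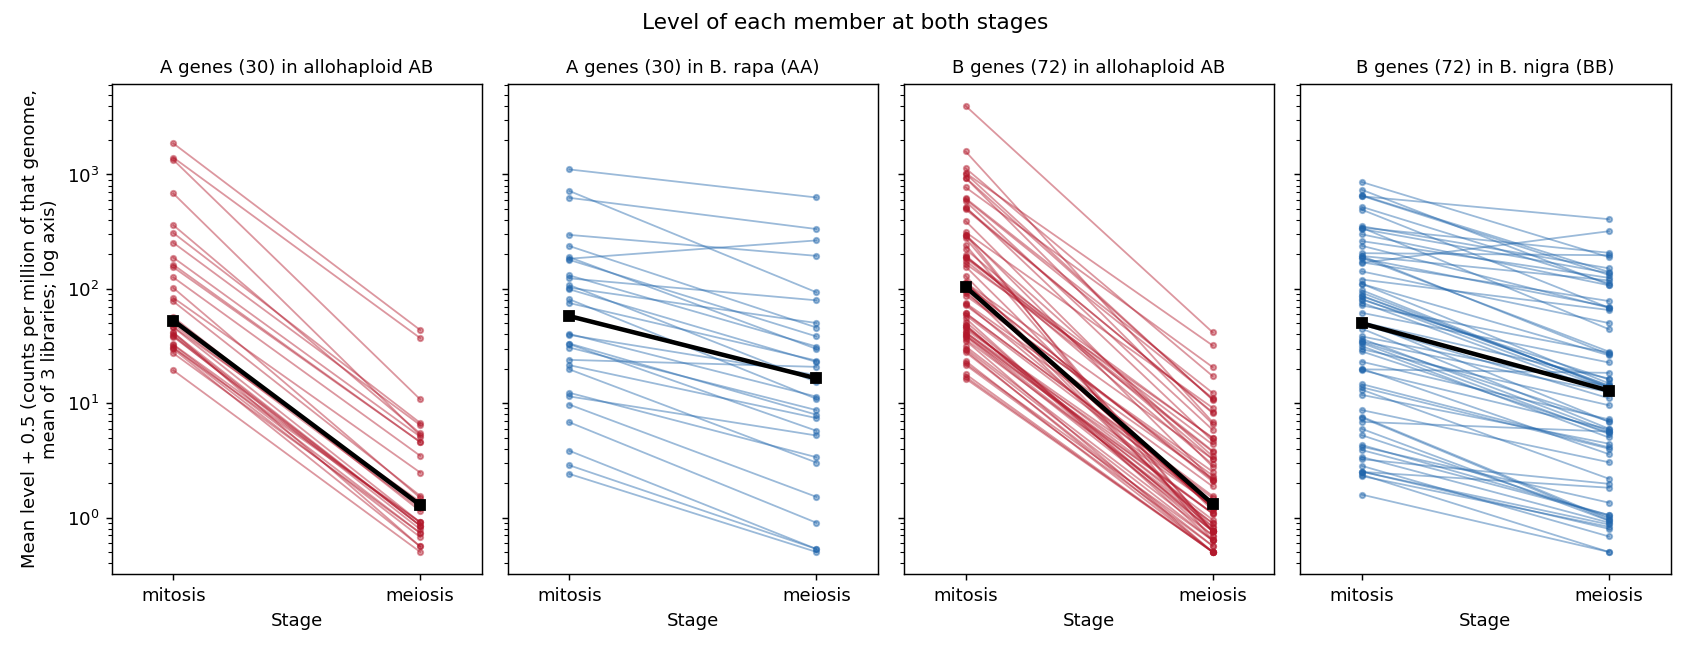
Mean level of each member plus 0.5 CPM on a log axis, at mitosis and at meiosis, in AB (red) and in the parent (blue), with 1 line per gene and the median in black. At meiosis the AB levels reach at most 43.1 CPM for A genes and 41.2 CPM for B genes, with medians of 0.786 and 0.817 CPM, while the parental levels spread from 0 to 628 CPM for A genes and to 406 CPM for B genes.

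The summed level of the members showed the same order in every library. In AB at mitosis the 30 A genes together took 0.752%, 0.783% and 0.777% of all A counts, against 0.441%, 0.449% and 0.469% in AA at mitosis. At meiosis they took 0.0144%, 0.0142% and 0.0125% in AB, against 0.194%, 0.196% and 0.192% in AA. The groups did not overlap, with AB highest of all at mitosis and lowest of all at meiosis. The genes were chosen on stage ratios in these same libraries, so this order follows in part from the choice and nothing is read from it. The most abundant members weigh most in these sums. In AB at mitosis the 72 B genes took 2.02%, 2.11% and 2.11% of all B counts, against 1.004%, 0.983% and 0.979% in BB at mitosis. At meiosis these genes took 0.0250%, 0.0266% and 0.0258% in AB, against 0.334%, 0.327% and 0.324% in BB. The means at meiosis were 0.0137% ± 0.00102 in AB and 0.194% ± 0.00193 in AA for A genes, and 0.0258% ± 0.000787 in AB and 0.328% ± 0.00497 in BB for B genes (SD, n = 3 libraries).

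**Figure D3:**
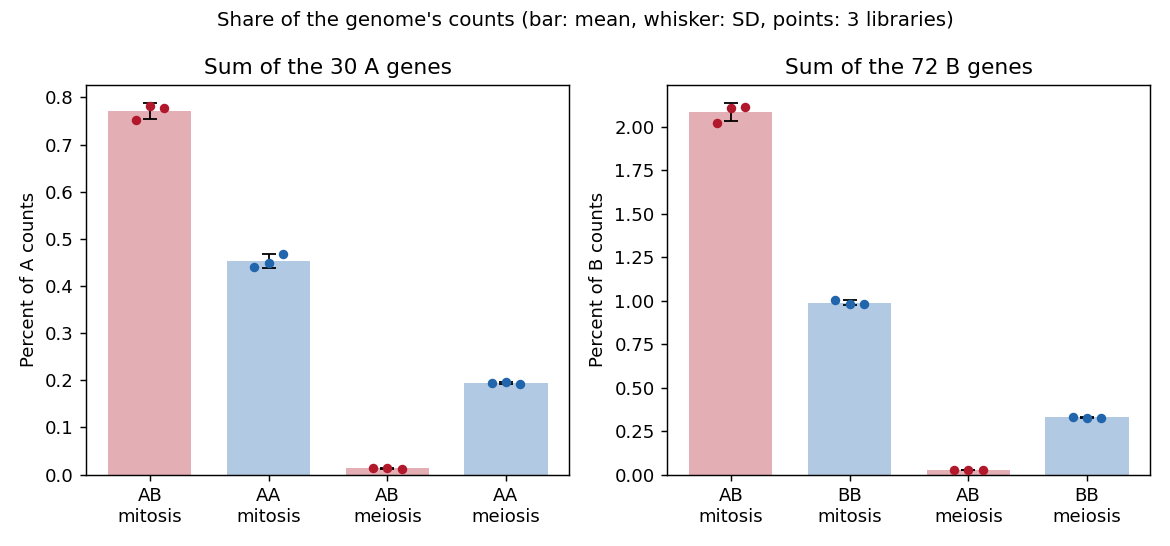
Percent of the genome's counts taken by the 30 A members (left) and the 72 B members (right) in AB (red) and the parent (blue) at each stage, with bars for means, whiskers for SD and points for the 3 libraries. The AB bars are the tallest at mitosis, at 0.771% and 2.08%, and the shortest at meiosis, at 0.0137% and 0.0258%. This order follows in part from the choice of members.

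Because the limits of the choice lie 4-fold apart, every member had to be at least 2-fold lower in AB at meiosis, at least 2-fold higher in AB at mitosis, or both. Which of these held was not fixed. Of the 102 members 48 were lower at meiosis only, 31 were both lower at meiosis and higher at mitosis, and 23 were higher at mitosis only. These classes depend on the scaling. CPM of all counts and FPKM divide AB counts by those of both genomes, which lowers AB relative to the parent. With either, the 14 A and 40 B members at least 2-fold higher at mitosis become 4 and 26. In all, 79 were at least 2-fold lower in AB at meiosis, 26 of 30 A genes and 53 of 72 B genes. Among all A genes with at least 1 CPM in a group and the same purity, 14.6% were at least 2-fold lower at meiosis, and among such B genes 16.3%. At mitosis 14 A and 40 B members were at least 2-fold higher in AB, against 9.05% of such A genes and 11.2% of those B genes. Of the 48 members that were lower at meiosis only, 44 lay within 2-fold of the parent at mitosis and 4 were at least 2-fold below it.

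**Figure D4:**
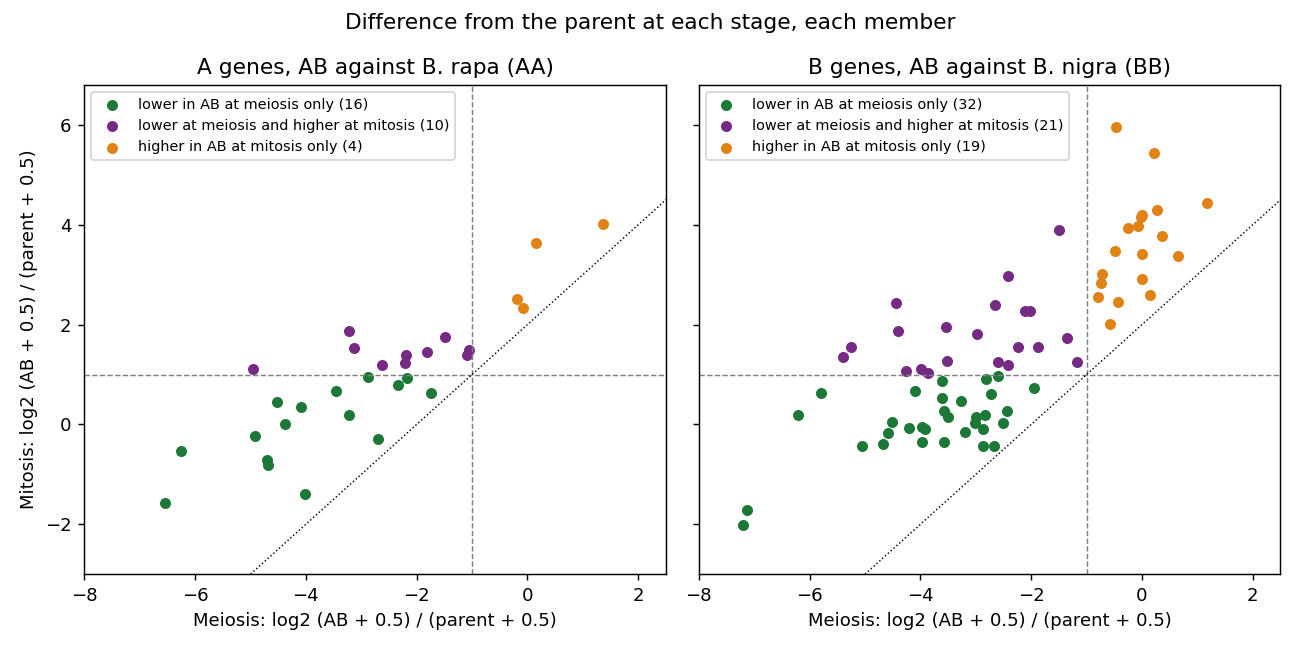
Log2 difference between AB and the parent at meiosis (x axis) and at mitosis (y axis) for each member, with dashed lines at 2-fold, and with a dotted line 4-fold above equality of both differences, which the choice of members sets as their lower limit. Green points (16 A and 32 B genes) are lower in AB at meiosis only, purple points (10 and 21) are also higher at mitosis, and orange points (4 and 19) are higher at mitosis only.

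The genes lower in AB at meiosis only were active in the parent at both stages. The 16 A genes had a median of 66.6 CPM in AB and 89.4 CPM in AA at mitosis, and of 0.813 CPM in AB and 22.8 CPM in AA at meiosis. Their median log2 difference from AA was 0.10 at mitosis and -4.05 at meiosis. The 32 B genes had medians of 109 CPM in AB and 94.2 CPM in BB at mitosis, and of 1.08 CPM in AB and 24.0 CPM in BB at meiosis. Their median log2 difference from BB was 0.05 at mitosis and -3.57 at meiosis. For most of these genes AB and the parent stood close together at mitosis and far apart at meiosis. The class was defined by AB at least 2-fold lower at meiosis and less than 2-fold higher at mitosis. This pattern thus follows in large part from the sorting. The difference at mitosis also depends on the scaling. Library sizes from all genes moved the median of all A genes there by -0.62 and of all B genes by -0.19 on the log2 scale.

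BjuA021273, the A member furthest below its parent at meiosis among those with at least 10 CPM there, had 0.351, 0.523 and 0.174 CPM in AB against 78.1, 80.9 and 77.5 CPM in AA. At mitosis it had 33.6, 39.0 and 49.8 CPM in AB against 115, 123.1 and 131 CPM in AA. AB was below AA in every library at both stages, by 93.4-fold in the ratio of means at meiosis and by a log2 difference of -1.58 at mitosis. The AB value at meiosis rests on 6 counts over the 3 libraries. BjuA021992 followed with 3.16, 2.27 and 3.47 CPM in AB against 254, 265 and 275 CPM in AA at meiosis. At mitosis this gene had 125, 126 and 126 CPM in AB and 173, 196 and 180 CPM in AA. It was the 1 A member with a lower parental mean at mitosis than at meiosis, at a ratio of 0.692, and the 1 A member not called in the AA stage contrast (edgeR adjusted p = 0.889, log2 change -0.01 after TMM scaling).

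Among B genes BjuB033484 was the furthest below at meiosis, with 0.592, 0.196 and 0 CPM in AB against 118, 108 and 108 CPM in BB. Its 4 counts in AB at meiosis make the 147-fold ratio imprecise. At mitosis it had 112, 135 and 141 CPM in AB against 498, 538 and 525 CPM in BB, so it stayed below BB after the rise. BjuB033341 had 2.37, 3.52 and 1.36 CPM in AB against 409, 411 and 398 CPM in BB at meiosis. At mitosis this gene had 195, 194 and 198 CPM in AB against 646, 635 and 651 CPM in BB. The 3 AB libraries lay under the 3 BB libraries at both stages, by 139-fold in the ratio of means at meiosis and by a log2 difference of -1.72 at mitosis.

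Another 10 A and 21 B genes were both lower at meiosis and higher at mitosis in AB. The 10 A genes had medians of 195 CPM in AB and 68.8 CPM in AA at mitosis, and of 3.35 CPM in AB and 11.5 CPM in AA at meiosis. For the 21 B genes the medians were 115 CPM in AB and 48.2 CPM in BB at mitosis, and 1.57 CPM in AB and 13.6 CPM in BB at meiosis. BjuA020580, the A member with the highest AB mean at mitosis, had 1759, 1934 and 1920 CPM in AB against 656, 718 and 774 CPM in AA. At meiosis it had 49.2, 43.6 and 36.7 CPM in AB against 92.1, 90.2 and 96.1 CPM in AA. The groups did not overlap at either stage, with AB 2.61-fold higher at mitosis and 2.14-fold lower at meiosis. Its log2 difference at meiosis, -1.10, was -1.99 with CPM of all counts and -0.94 with TMM scaling, which is less than 2-fold.

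BjuB040971 rose 232-fold in AB and 6.76-fold in BB. It had 1530, 1612 and 1623 CPM in AB against 745, 719 and 738 CPM in BB at mitosis. At meiosis it had 7.30, 5.67 and 6.04 CPM in AB against 112, 106 and 107 CPM in BB. AB was thus 2.16-fold above BB at mitosis and 15.9-fold below it at meiosis, with no overlap. BjuB042898, singled out after its values were seen, was the 1 B member whose parental mean fell. It averaged 495 CPM in AB and 168 CPM in BB at mitosis, and 7.83 CPM in AB and 318 CPM in BB at meiosis. Its BB stage contrast was called lower with a log2 change of -0.79 (edgeR adjusted p = 1.15e-10).

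BjuA041533, the next most abundant A member, belongs with the genes that were lower at meiosis only. It had 1438, 1376 and 1403 CPM in AB against 1121, 1084 and 1114 CPM in AA at mitosis. At meiosis it had 37.4, 40.1 and 32.3 CPM in AB against 634, 639 and 612 CPM in AA. The libraries did not overlap at either stage in this scaling, and the ratio of means was 1.27-fold higher in AB at mitosis and 17.0-fold lower at meiosis. After TMM scaling the difference at mitosis was 0.08 on the log2 scale and was not called (edgeR adjusted p = 0.201).

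**Figure D5:**
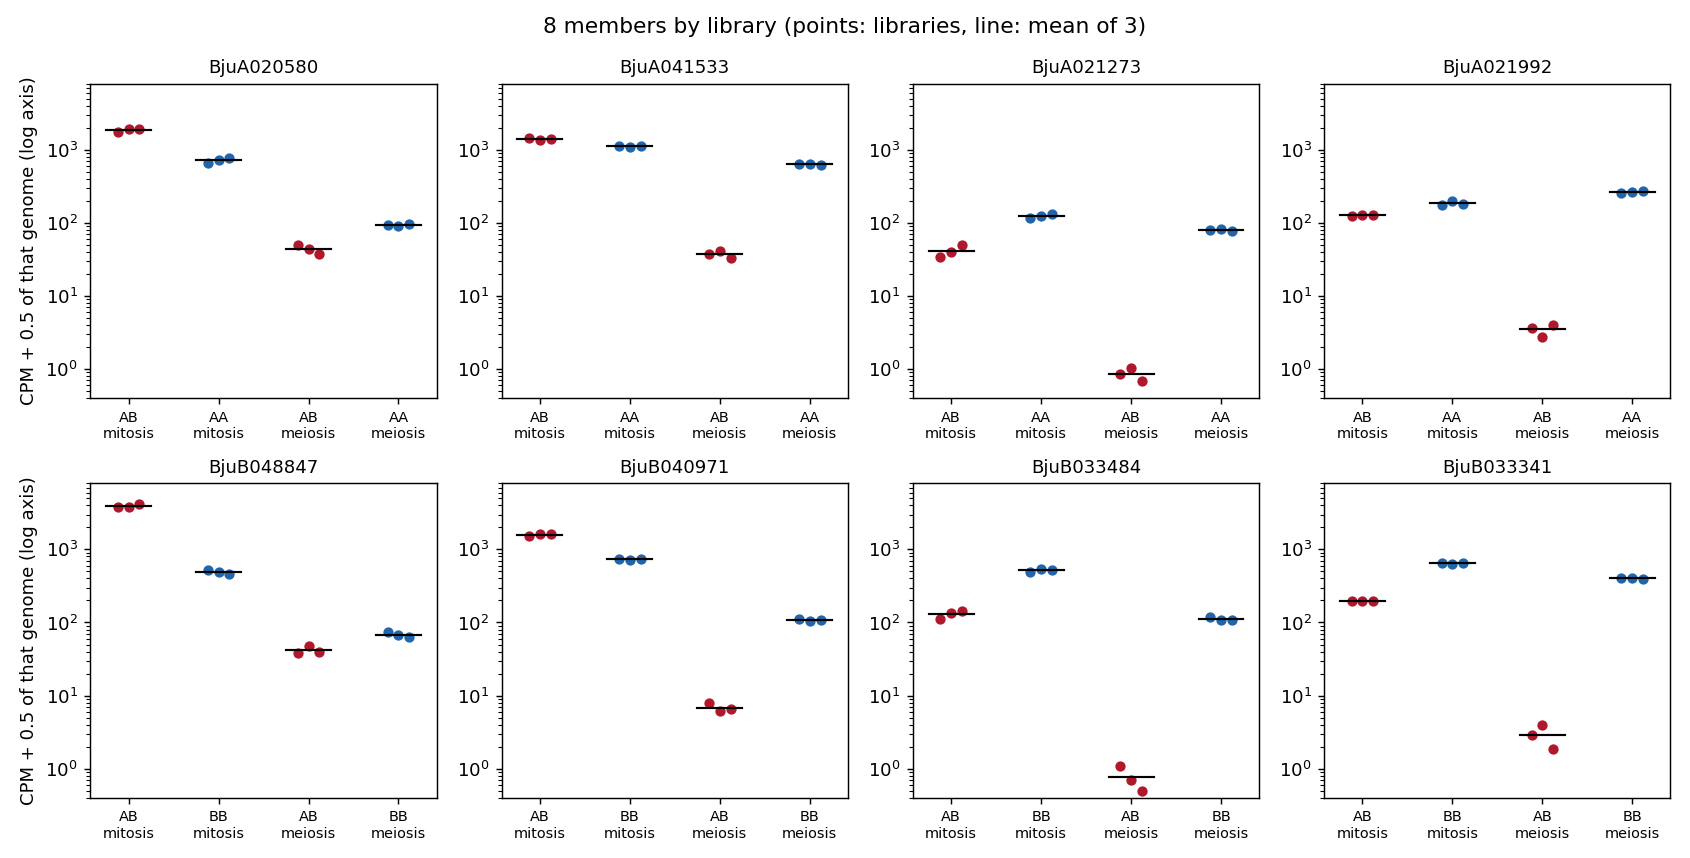
CPM plus 0.5 on a log axis in each library for 8 members, with 3 points per group and a line at the mean. The 4 A genes (top) and 4 B genes (bottom) all have their lowest values in AB at meiosis, and 4 of them, BjuA021273, BjuA021992, BjuB033484 and BjuB033341, stay below the parent in AB at mitosis.

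The genes higher in AB at mitosis only, 4 A and 19 B genes, were mostly genes at low level in the parent. All 4 A genes and 14 of the 19 B genes had under 1 CPM in the parent at meiosis, and 4 A and 15 B genes stayed under 10 CPM there at mitosis. The 4 A genes had medians of 33.7 CPM in AB and 2.85 CPM in AA at mitosis, and of 0.174 CPM in AB and 0.0309 CPM in AA at meiosis. The 19 B genes had medians of 58.3 CPM in AB and 3.67 CPM in BB at mitosis, and of 0.717 CPM in AB and 0.477 CPM in BB at meiosis. A gene under 0.5 CPM in the parent at meiosis cannot be 2-fold lower in AB there with 0.5 CPM added. The low level of this class thus follows in part from the sorting. At such levels the added 0.5 CPM also holds the parental ratio down. Without it 4 A and 7 B members of any class exceeded 8-fold in the parent, of which 3 A and 5 B genes were higher at mitosis only. Another 1 A and 2 B members had 0 counts in the parent at meiosis, which allows up to 3 counts over the 3 libraries.

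BjuB048847, also higher at mitosis only, was the most abundant of all members in AB at mitosis. It had 3859, 3846 and 4217 CPM in AB against 526, 496 and 453 CPM in BB at mitosis. At meiosis it had 37.9, 46.7 and 38.9 CPM in AB against 73.2, 66.6 and 63.7 CPM in BB. AB was 8.08-fold above BB at mitosis and 1.64-fold below it at meiosis, and the libraries did not overlap at either stage. BjuB025800, singled out after its values were seen, had the widest gap at mitosis of all members, with means of 241 CPM in AB and 3.39 CPM in BB, and with 0.261 CPM in AB and 0.551 CPM in BB at meiosis.

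All 18 A members with at least 10 CPM in AA at meiosis were at least 2-fold lower in AB at that stage, and 12 of them at least 8-fold. Of 39 such B members 35 were at least 2-fold lower in AB and 27 at least 8-fold. Among all 11116 A genes with that parental level and the same purity, 13.9% were at least 2-fold lower in AB and 1.26% at least 8-fold, and among 10233 such B genes 20.5% and 2.43%. The 32-fold limit holds the AB level of a member low at meiosis, so these counts follow in part from the choice. Members whose parental level stayed within 2-fold or fell, 6 A and 10 B genes, had parental medians at meiosis of 229 CPM in AA and 91.3 CPM in BB. Their median log2 difference from the parent at meiosis was -4.93 in A genes and -4.76 in B genes. For the 24 A and 62 B members with a parental rise of 2-fold to 8-fold, these medians were -2.27 and -2.64. A small parental ratio needs a high parental level at meiosis or a low one at mitosis, so this order, too, is in part set by the choice.

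By the fitted differences at meiosis 26 of 30 A members were called lower in AB, against 25.8% of all 23143 A genes tested, and 1 was called higher, against 27.7%. For B genes 57 of 72 members were called lower, against 31.6% of all 21204 B genes tested, and 1 higher, against 31.9%. At mitosis 19 A members were called higher in AB, against 24.2% of all A genes, and 7 lower, against 28.1%. Of the B members 49 were called higher at mitosis, against 26.8% of all B genes, and 13 lower, against 30.5%. All 102 members passed the filter on low counts. Their directions at both stages are tied by the choice, and these calls are therefore a description.

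Other scalings changed the split at mitosis. Library sizes from all genes gave 13 A members higher and 11 lower, against 9.93% and 58.3% of all A genes. Run on log2(FPKM + 1), limma gave 12 A members higher and 11 lower, against 9.86% and 58.5%. For B genes library sizes from all genes gave 47 members higher and 17 lower, against 20.7% and 38.4% of all B genes, and limma gave 35 and 28, against 10.5% and 65.5%. Sizes from all genes moved the median of all A genes by -0.32 at meiosis and -0.62 at mitosis on the log2 scale, and that of all B genes by -0.47 and -0.19. On that scale the members' median difference at mitosis was 0.06 in A genes and 0.92 in B genes, still above the median of all genes. At meiosis 26 A and 59 B members were called lower in AB under that scaling, against 40.3% of all A genes and 48.1% of all B genes.

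The difference between both stage changes, larger in AB by choice, was called for 27 of 30 A members, against 21.9% of all A genes, and for 69 of 72 B members, against 24.2%. The 6 members not called, named here after their values were seen, were BjuA008367, BjuA021329, BjuA047378, BjuB032387, BjuB041057 and BjuB046602. Each had at most 0.183 CPM in the parent and at most 1.04 CPM in AB at meiosis. For BjuA021329 the fitted difference was -0.34, so without the added 0.5 CPM it would not be a member. Counts at meiosis were few in AB for a wider group, with 4 A and 14 B members at 3 or fewer counts over the 3 libraries, and the size of their rise in AB is imprecise.

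When members were chosen on 2 libraries per group, the library left out gave similar ratios. The A genes chosen in this way numbered 36, 37 and 38 with replicate 1, 2 or 3 left out, and in the left-out libraries their median log2 stage change was 5.20, 5.46 and 5.37 in AB and 1.97, 2.21 and 2.28 in AA. For B genes, 76, 74 and 76 were chosen, with medians of 5.62, 5.80 and 5.75 in AB and 1.94, 2.09 and 1.84 in BB. The left-out libraries met both ratio limits for 21 to 23 A genes and for 53 to 55 B genes. The change in AB exceeded that in the parent for all these genes in the left-out libraries except 1 of the 37 A genes chosen without replicate 2. Libraries of a group may share plants, so this removes only selection on noise between libraries.

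The members' own replicates were close. All 102 had each AB library at mitosis at 0.5 of the group mean or more, and no library held more than 40.7% of a member's AB level at mitosis. Over the 3 AB libraries at mitosis the least covered A member had 326 counts and the least covered B member 241. At meiosis every AB library lay under every AA library for 26 of 30 A members and under every BB library for 59 of 72 B members. The share over all genes with at least 1 CPM was 39.6% in the A genome and 33.9% in the B genome. The choice used the meiosis means of these same libraries, so this separation follows in part from it and nothing is read from it.

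The choice kept only genes with at least 90% of parental CPM in their own parent, so small counts from the other genome follow from it. In BB, which has no A genome, 22 of the 30 A members had 0 counts at mitosis, and the highest BB value was 7.46 CPM of all counts. In AA 52 of the 72 B members had 0 counts at mitosis, and the highest value was 6.03 CPM of all counts. The other parent's level reached at most 5.93% of the AB level at mitosis for an A member and 6.21% for a B member, and it exceeded 1% for 2 A and 5 B members. Where an A and a B copy are nearly the same in sequence, their reads may have been split between both identifiers.

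With 0.5 CPM added, the 32-fold limit requires at least 15.5 CPM in AB at mitosis, so high levels per length there and low ranks at meiosis follow in part from the choice. The members' median FPKM, which scales counts by coding length and library size, was 43.0 in the A genome and 49.3 in the B genome of AB at mitosis. All A genes above 0 had a median of 3.23 there, and all such B genes 2.95. In AB at mitosis 16 of 30 A and 42 of 72 B members were in the top 10% of such genes. Of the B members 38 had at least 100 CPM of B counts in AB at mitosis, and 25 had so in BB. A high rank at mitosis was not particular to AB for A genes. In AA at mitosis 16 of the 30 A members were in the top 10% as well. Their median there was 95.6 FPKM, against 4.87 for all A genes above 0. FPKM divides AB counts by those of both genomes, so this median is not on the same scale as the 43.0 in AB. In CPM of A counts, the A members had medians of 52.3 in AB and 57.2 in AA at mitosis. In AB at meiosis 0 of them were in the top 10%, and 20 A and 58 B members were under the median of 2.54 FPKM for A genes and 2.39 FPKM for B genes. In the parent at meiosis 5 A and 14 B members were in the top 10%, with a median member at 26.7 FPKM in AA and 8.62 FPKM in BB. The median coding length was 806 bases for A members and 1008 bases for B members, against 1071 and 1080 bases for all A and B genes with at least 1 CPM.

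The genes that rose at least 32-fold in AB and over 8-fold in the parent are the set most like the members, and they started low in both plants. Their medians at meiosis were 0.117 CPM in AB and 0.309 CPM in AA for the 738 A genes, and 0.130 CPM in AB and 0.111 CPM in BB for the 592 B genes. At mitosis they reached 92.9 CPM in AB and 114 CPM in AA, and 86.1 CPM in AB and 113 CPM in BB. At least 2-fold lower levels in AB at meiosis were found for 23.4% of these A genes and 15.2% of these B genes, against 86.7% of A members and 73.6% of B members. The sets were separated by their parental stage ratio, which shares its meiosis value with this comparison, so no test is given. With 0.5 CPM added, a gene under 0.5 CPM in the parent at meiosis cannot be 2-fold lower in AB. The parental medians of the comparison genes, 0.309 and 0.111 CPM, lie under that level. Their lower shares thus follow in part from the added 0.5 CPM.

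The mirror image of the choice, a rise of at least 32-fold in the parent with 0.5-fold to 8-fold in AB, held for fewer genes. There were 15 such A genes and 37 such B genes, 1.84% and 5.26% of the 817 A and 703 B genes that rose at least 32-fold in the parent with the same purity and at least 1 CPM in AB. The 15 A genes had medians of 11.4 CPM in AB and 37.3 CPM in AA at mitosis, and 1.39 and 0.370 at meiosis. For the 37 B genes they were 9.46 CPM in AB and 39.3 CPM in BB at mitosis, and 2.03 and 0.183 at meiosis. With 0.5 CPM added, the median log2 difference was -1.51 in A and -2.075 in B genes at mitosis, and 1.06 and 1.16 at meiosis. At mitosis 12 A and 33 B genes were at least 2-fold lower in AB. At meiosis 0 of these genes were at least 2-fold lower in AB, and 9 A and 19 B genes were at least 2-fold higher. The mirror limits, too, lie 4-fold apart, so a difference at 1 stage or both follows from them. The mirror set was counted with 1 scaling and 1 set of limits only. TMM scaling, which added 0.52 to the log2 stage change of A genes in AA and 0.10 in AB, was not applied to it.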

How the data were processed

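RNA sequencing libraries of anthers were compared, 3 in each of 6 groups taken from the titles, stage and genome labels. The authors deposited raw counts per gene and FPKM values. The submitters' processing notes name HTSeq 0.6.0, TopHat2, HISAT2 2.1.0 and Bowtie 1.0.1. The sources used here do not give the role of each, the build, the gene models, the strand setting or the treatment of reads with several matches. The lengths implied by counts and FPKM were multiples of 3 for 99.9% of genes and are called coding lengths. The table repeats the column of AA mitosis library 1 with equal values, and this 1 extra column was not used. Replicate libraries differed by more than sampling noise, with a chi-square per degree of freedom between 2.30 and 6.91 over genes with at least 20 counts in a pair. Intervals and floors cover counting error only.

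Members and sets were chosen with earlier results of these data known. Ratios used mean CPM of the genome's own counts plus 0.5. The count model was edgeR 4.0.16 under R 4.3.3 (quasi-likelihood, 1 mean per group, TMM factors, low counts filtered by group), fitted separately for A genes (AA and AB) and B genes (BB and AB). Adjusted p-values (Benjamini-Hochberg, over all genes tested) under 0.05 were called. TMM scaling added 0.52 to the log2 stage change of A genes in AA and 0.10 in AB, and 0.13 in BB and 0.01 in AB for B genes. Alternatives were limma 3.58.1 with log2(FPKM + 1) values, DESeq2 1.42.0, a required change of 2-fold, blocking on replicate number, fits of the contrast's own groups, library sizes from all genes, other scaling factors, unfiltered genes, other limits of the choice, and leaving out each library. Identifiers named by rule were, per genome, the 2 members with the highest AB mean at mitosis and the 2 furthest below the parent at meiosis with at least 10 CPM in the parent.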

Additional observations from a re-analysis of the deposited data

Results flagged for a closer look

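The stage change differed between AB and the parent, by the edgeR test of that difference, for 27 A members and 69 B members. The choice required a larger ratio in AB with 0.5 CPM added, though not this call, so the counts mostly describe that choice. Among the 7504 unplaced identifiers, which no comparison above used, the same limits on CPM of all counts were met by 1 gene counted mainly in AA and by 3 genes counted mainly in BB. These came from 19 and 66 unplaced genes that rose at least 32-fold in AB with the same parental level and purity.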

How the results depend on the processing

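The number of members followed the limits and the scaling, for 30 A and 72 B genes as described. It was 70 and 121 with 0.1 CPM added in place of 0.5, 116 and 178 at 16-fold in AB, 5 and 28 at 64-fold, 14 and 37 with at most 4-fold in the parent, and 18 and 42 with CPM of all counts. Of the last, 15 A and 41 B genes were members above. Other limits and scalings, and leaving out each library, kept the numbers within 1.5 times but not always the genes. With 1 CPM added, 21 A and 52 B genes were chosen, of which 14 and 45 were members above, and with FPKM 25 and 48, of which 18 and 45 were. Without 1 library 29 to 36 A and 70 to 77 B genes were chosen, with at least 28 and 65 members above among them.

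Counts at least 2-fold lower in AB at meiosis stayed between 24 and 26 for A members and between 52 and 56 for B members over 17 alternatives each, chosen after seeing the data. Counts at least 2-fold higher at mitosis, 14 and 40, fell to 4 and 26 with CPM of all counts and also with FPKM. Both of these scalings divide AB counts by those of both genomes. The number of A members called higher at mitosis, 19, was 11 with a minimum of 2-fold and 12 with limma. The number called lower at mitosis, 7 A and 13 B, ran from 3 to 11 and from 2 to 28. Counts called higher at mitosis in B genes, lower at meiosis, higher in either stage change and higher in their difference stayed within 1.5 times under the alternatives run. Of 256 alternatives for the ratios of the 8 members named by rule, 0 reversed the direction and 16 moved by more than 1 SD between libraries. Same-numbered libraries did not deviate together, with correlations between -0.0366 and 0.0190. The replicate block gave 19 A and 49 B members higher at mitosis, and 26 and 57 lower at meiosis. Members with 3 or fewer counts in AB at meiosis have an imprecise rise.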

Other observations

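A further 7 A and 6 B identifiers met all limits except that on the share of parental CPM, so part of their parental counts came from the parent that lacks that genome. At mitosis every AB library lay above every parental library for 22 A and 51 B members, against 34.8% and 29.6% of all genes with at least 1 CPM, and below every parental library for 7 A and 11 B members, against 22.5% and 28.6%. The choice used the mitosis means of these same libraries, so these counts follow in part from it. The members of the 2 genomes could not be paired as copies of 1 ancestral gene with the files used here.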
